A study of Mus musculus with 9 samples.

Results

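The 6 miR-1 mutant hearts of the series were pooled and set against its 3 wild-type hearts, so that all 9 arrays of the series were used. Members were chosen by genotype label alone. Of the 6 mutant hearts, 3 were miR-1-1 null, with both *miR-1-1* alleles replaced by a floxed neomycin cassette through targeting in E14 embryonic stem cells, and 3 were double-heterozygous (*miR-1-1* +/-, *miR-1-2* +/-). Each mutant heart had therefore lost 2 of its 4 miR-1 alleles, from a single locus in the null and from both loci in the double heterozygote. All hearts were whole neonatal hearts taken at postnatal day 2 from mice of mixed 129 x C57BL/6 background, and neither mutant carried a conditional driver, so every cell type of the heart carried the deletion. Total RNA was amplified with the NuGen Ovation pico system and hybridised to Affymetrix Mouse Gene ST 2.0 arrays. The labels do not say whether hearts of a group came from separate litters, so the p-values measure only the spread between these samples.

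miR-1 is a muscle microRNA made from a pair of loci, each of which also encodes a miR-133a copy on the same primary transcript, and the mature miR-1 of the loci has the same sequence. By pairing of its seed with messenger RNAs, it lowers their stability and translation, so that direct targets are expected to be higher where the microRNA is lost. In the heart miR-1 is known for restraining smooth muscle genes, cell cycle genes and transcription factors of early cardiogenesis, and its own loci are activated by serum response factor (Srf) with myocardin. Pooling asks which transcripts were shifted in hearts lacking part of their miR-1 alleles, whichever locus had lost them.

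Levels are log2 RMA values (background-corrected, quantile-normalised array signal), and each gene was read from its brightest probe set, which gave 22180 genes. Where 3 levels are given for mutant hearts, they are the lowest, median and highest of the 6. Where 3 are given for wild-type, null or double-heterozygous hearts, they are single hearts in replicate order. Arrays were alike, with correlations between pairs of 0.982 to 0.988, and the median SD over genes was 0.14 in the null, 0.14 in the double-heterozygous and 0.15 in the wild-type group. The 10 cardiomyocyte markers had summed linear signals of 15409 to 16188 in mutant hearts and 14929 to 15735 in wild-type hearts, and none was near background. Wild-type heart 1 stood apart in genes of other tissues: *Scgb1a1*, a secretory protein of airway cells, was at 6.51 there, against 1.54 to 2.39 in the other 8 hearts, and *Ucp1*, the uncoupling protein of brown fat, was at 4.95, against 2.34 to 3.93. *Xist*, the RNA that coats the inactive X chromosome, was high in 1 double-heterozygous heart (8.31) and in wild-type heart 1 (7.74) alone, so the pooled groups were not matched for sex. These genes were named after their values were seen. In whole hearts, fewer cells of a type and less RNA per cell cannot be told apart.

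The deleted loci were read first. The mature strand of *Mir1a-1* annotated by RefSeq is printed here, from mouse chromosome 2 (GRCm38.p6, chr2:180389057-180389079, plus strand, within the *Mir1a-1* precursor), with the seed, bases 2 to 8, in capitals, because it lies in the segment that the null allele lacks. It is the less abundant arm of the hairpin, and miR-1 itself comes from the other arm.
miR-1a-1-5p: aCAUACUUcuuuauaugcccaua
The *Mir1a-1* precursor had a lowest, median and highest level of 0.92, 1.17 and 1.52 in mutant hearts, against 1.29, 1.85 and 2.21 in wild-type hearts (log2 difference -0.58, or -0.37 without wild-type heart 3, SE 0.20, limma adjusted p = 0.561, two-sided exact permutation p = 0.0952). The groups overlapped, and the mutant level was near the array background of 1.86, so this probe set measured the deletion poorly. That background is the upper quartile of the mean levels of olfactory and vomeronasal receptor genes in the mutant hearts. The host transcript *Mir1a-1hg*, the long RNA from which the *miR-1-1* hairpin is cut, was at 6.71, 7.04 and 7.36 in mutant hearts and at 6.07, 5.82 and 5.62 in wild-type hearts. It was 2.28-fold higher in the mutants with no overlap (log2 difference 1.19, SE 0.16, limma adjusted p = 0.0912, exact permutation p = 0.0238, the smallest that 6 against 3 samples allow), and both genotypes were above wild-type (1.26 in null and 1.12 in double-heterozygous hearts).

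The hairpins that share these transcripts kept the genotypes apart, as shown in the plot of the miR-1 and miR-133a loci. *Mir133a-2*, the partner of *miR-1-1*, was at 3.07, 4.92 and 6.33 in mutant hearts and at 5.63, 6.38 and 5.45 in wild-type hearts. The pooled mutants held 0.499 times the wild-type level (log2 SE 0.64, exact permutation p = 0.262), made up of log2 differences of -2.03 in null and 0.02 in double-heterozygous hearts. The pooled log2 difference was -0.65 without null heart 6. *Mir133a-1*, the partner of *miR-1-2*, was at 4.00, 4.98 and 6.16 in mutant hearts and at 6.37, 6.09 and 5.42 in wild-type hearts, with a pooled difference of -0.96 (SE 0.47, exact permutation p = 0.19) made up of -0.17 in null and -1.74 in double-heterozygous hearts. The mutant hearts thus spanned a wide range at both hairpins and overlapped the wild-type range. The double-heterozygous minus null difference was 2.05 (SE 0.39, limma adjusted p = 0.322) at *Mir133a-2* and -1.57 (SE 0.25, adjusted p = 0.18) at *Mir133a-1*, and neither passed adjustment over all genes.

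A probe set annotated to both *Mir1b* and *Mir1a-2* was at 9.75, 9.30 and 9.22 in null hearts and at 8.56, 8.37 and 8.58 in double-heterozygous hearts, against 9.54, 9.25 and 9.38 in wild-type hearts. The 3 double-heterozygous hearts lay below the others, and the pooled difference of -0.42 had an exact permutation p = 0.286. *Mir206*, the skeletal muscle paralogue of miR-1, was near background in both groups, at 0.58 to 0.79 in mutant hearts and 0.89 to 1.08 in wild-type hearts. These precursor signals are not measurements of mature miR-1, which was not assayed on these arrays.

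**Figure D1:**
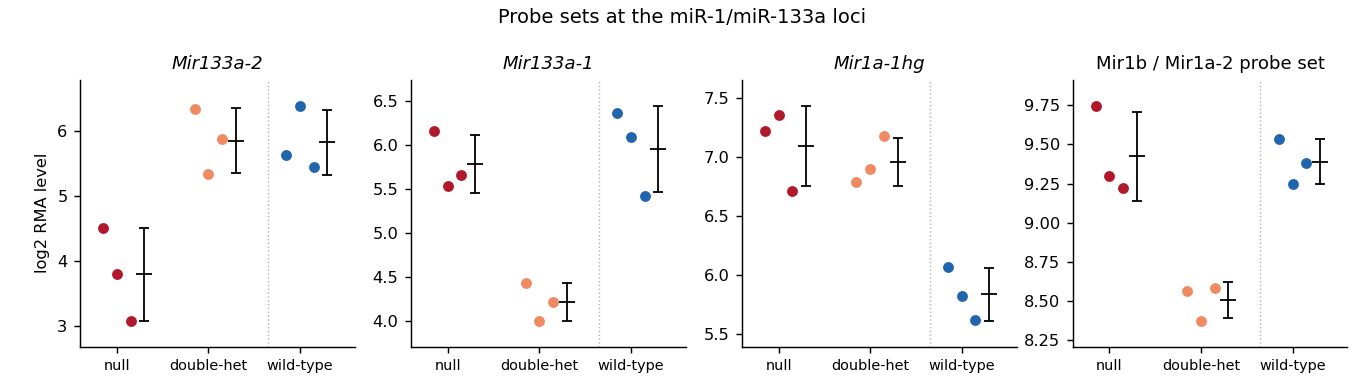
Log2 RMA level (y axis) of the *Mir133a-2* and *Mir133a-1* precursors, the *Mir1a-1hg* host transcript and the probe set shared by *Mir1b* and *Mir1a-2*, with 1 point per heart for miR-1-1 null, double-heterozygous and wild-type hearts (x axis) and bars for the mean and SD. *Mir133a-2* is low in the null hearts and *Mir133a-1* in the double-heterozygous hearts, while *Mir1a-1hg* lies above every wild-type heart in all 6 mutants.

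Across all genes the pooled contrast was small. The median difference was -0.013, with 10262 genes above 0 and 11918 below. At an adjusted p under 0.05, 2 genes passed (0.00902% of those tested), both lower in the mutants. The study's array methods called a gene at p under 0.0025 with a fold change over 1.5 or under 0.5, unadjusted, and by these limits 18 genes (0.0812%) were higher and 11 (0.0496%) were lower. Without adjustment, 688 genes (3.10%) were higher and 1058 (4.77%) lower at a limma p under 0.05, the limit used for the counts of list members. The 6 mutant values all lay above the 3 wild-type values in 304 genes (1.37%) and all below them in 504 (2.27%).

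The leading named gene was *Mylk4*, which encodes a myosin light chain kinase family member of striated muscle. It was at 2.34, 2.70 and 2.70 in mutant hearts, against 3.77, 3.58 and 3.62 in wild-type hearts. The groups did not overlap, and *Mylk4* fell to 0.483 times the wild-type level (log2 difference -1.05, SE 0.10, limma adjusted p = 0.0192, exact permutation p = 0.0238). The difference was -0.95 in null and -1.15 in double-heterozygous hearts, and the difference between them was -0.19 (SE 0.11, adjusted p = 0.733). In 4 of the 6 mutant hearts the *Mylk4* value was equal to within 1e-06. Such runs of 4 or more equal mutant values were present in 1527 genes (6.88%), and they narrow the spread on which the test rests. The other gene to pass was *Gm10731*, a transcribed pseudogene outside the rule for named genes, at 1.88, 2.07 and 2.42 in mutant hearts and 3.36, 3.42 and 3.31 in wild-type hearts (-1.25, SE 0.13, adjusted p = 0.0192). The count of genes past adjustment was 0 without null heart 4, 5 or 6 and 0 without wild-type heart 1, 2 or 3, each left out alone. It was 1 without double-heterozygous heart 7. *Mylk4* just missed the study's fold limit of 0.5 without double-heterozygous heart 9 or wild-type heart 1.

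The genotypes were then compared with each other among the genes that separated the pooled mutants from wild-type. Double-heterozygous and null hearts differed at an unadjusted limma p under 0.05 in 1638 genes (7.39%), and in 0 after adjustment by limma. Of the 29 genes past the study's limits in the pooled contrast, 1 differed between the genotypes at the unadjusted limit, and the median absolute difference between them was 0.14. The pooled test counts a difference between the genotypes as spread, so genes on which they disagree were less likely to be among the 29. Of the 87 genes with no overlap and a difference of 1.5-fold or more, 43 were higher and 44 lower in the mutants, and 10 differed between the genotypes at the same unadjusted limit.

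**Figure D2:**
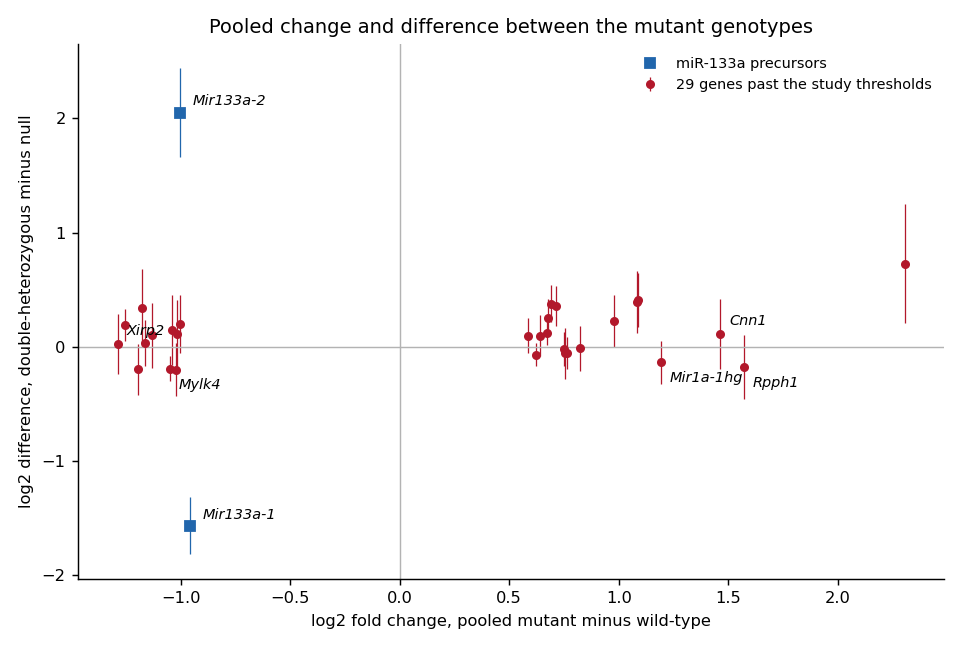
Pooled mutant minus wild-type log2 difference (x axis) against the double-heterozygous minus null log2 difference (y axis, with SE) for the 29 genes past the study's limits and the 2 miR-133a precursors. The genes past the limits lie within 0.73 of 0 on the y axis, while *Mir133a-2* lies at 2.05 and *Mir133a-1* at -1.57. The point farthest right, at 2.31, is *Olfr801*, an olfactory receptor gene outside the rule for named genes.

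A few smooth muscle genes were among those with the highest differences. *Cnn1*, calponin, an actin-binding protein of contractile smooth muscle, was at 6.93, 7.30 and 7.80 in mutant hearts, against 6.55, 5.57 and 5.52 in wild-type hearts. Every mutant heart lay above every wild-type heart, of which heart 1 was the highest. *Cnn1* was 2.76-fold higher (log2 difference 1.46, SE 0.26, limma adjusted p = 0.21, exact permutation p = 0.0238). *Myl9*, the regulatory light chain of smooth muscle myosin, was at 9.81, 10.18 and 10.25 in mutant hearts, against 9.27, 9.27 and 9.44 in wild-type hearts. It was 1.70-fold higher without overlap (0.76, SE 0.12, adjusted p = 0.147).

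*Acta2*, smooth muscle actin, was at 9.44, 9.55 and 9.88 in mutant hearts and at 9.24, 9.02 and 8.36 in wild-type hearts. Its difference of 0.76 (SE 0.18, adjusted p = 0.478) leaned on wild-type heart 3, the lowest, and was 0.50 without it. It missed the study's limits when any heart other than wild-type heart 1 was left out. *Csrp2*, a LIM protein of smooth muscle, was 7.27 to 7.57 in mutant hearts and 6.92 to 7.13 in wild-type hearts, again without overlap (0.38, SE 0.10, adjusted p = 0.478). Other members went the opposite way. *Ppp1r14a*, an inhibitor of myosin phosphatase, had a difference of -0.73 with overlap (exact permutation p = 0.0476), and *Mylk*, the smooth muscle myosin light chain kinase, was at 3.31, 3.44 and 3.50 in mutant hearts against 3.55, 3.65 and 3.65 in wild-type hearts (-0.20, exact permutation p = 0.0238). *Tagln*, a further early marker of the lineage, differed by 0.26 (exact permutation p = 0.238), with values of 0.53 without wild-type heart 1 and 0.07 without wild-type heart 3, and the co-activator *Myocd* by 0.16 (exact permutation p = 0.214).

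Over the 29 measured members of the smooth muscle list, 15 were above 0 and 14 below, with a median of 0.0045 beside -0.013 over all genes. At the unadjusted limit 4 were higher (13.8%, against 3.10% over all genes) and 3 lower (10.3%, against 4.77%), with 0 lower without wild-type heart 3. The mural cell list, pericyte markers found beside smooth muscle on small vessels, was below 0 in 12 of 12 genes with a median of -0.24. Of its members *Heyl*, a Notch-responsive repressor, was at 5.33 to 5.61 in mutant hearts and 5.67 to 5.97 in wild-type hearts (-0.36, adjusted p = 0.478). The part of mural cell number in the smooth muscle values was not tested.

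The 300 bases around the start of *Myl9* (RefSeq, GRCm38.p6, chr2:156775214-156775513, plus strand, 250 bases before the start and 50 after it) are shown because they hold a CArG box, the element that Srf binds, in capitals, with its first base 161 bases before the start.
*Myl9* promoter: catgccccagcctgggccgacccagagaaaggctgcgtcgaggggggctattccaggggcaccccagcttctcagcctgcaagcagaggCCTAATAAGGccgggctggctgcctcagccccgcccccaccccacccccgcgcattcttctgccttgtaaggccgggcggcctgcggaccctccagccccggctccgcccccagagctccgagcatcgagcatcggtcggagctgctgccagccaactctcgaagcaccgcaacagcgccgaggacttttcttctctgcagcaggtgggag
The CArG box was searched on both strands as the strict pattern CCWWWWWWGG, where W is A or T. It was present in 3 of the 24 smooth muscle genes with a window (12.5%, *Cnn2*, *Myl9* and *Vcl*) and in 248 of 16990 genes in all (1.46%). The list was drawn up from known smooth muscle genes, so these shares describe it and test nothing. Of the 3 genes, only *Myl9* was past the study's limits. The windows of *Cnn1* and *Acta2* held no strict match, which says only that these letters are not in this stretch. The *Acta2* window does hold CCCTATATGG and CCTTGTTTGG, each of which differs from the strict pattern by a single middle base. Such near matches were not counted in any gene, so the search does not show that a window lacks a site for Srf. *Srf* itself had a difference of -0.31 (exact permutation p = 0.0952), which was -0.20 without wild-type heart 2 and -0.47 without wild-type heart 3, and none of the 21 measured genes of the Srf, myocardin and immediate early list passed an unadjusted p under 0.05 in either direction.

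**Figure D3:**
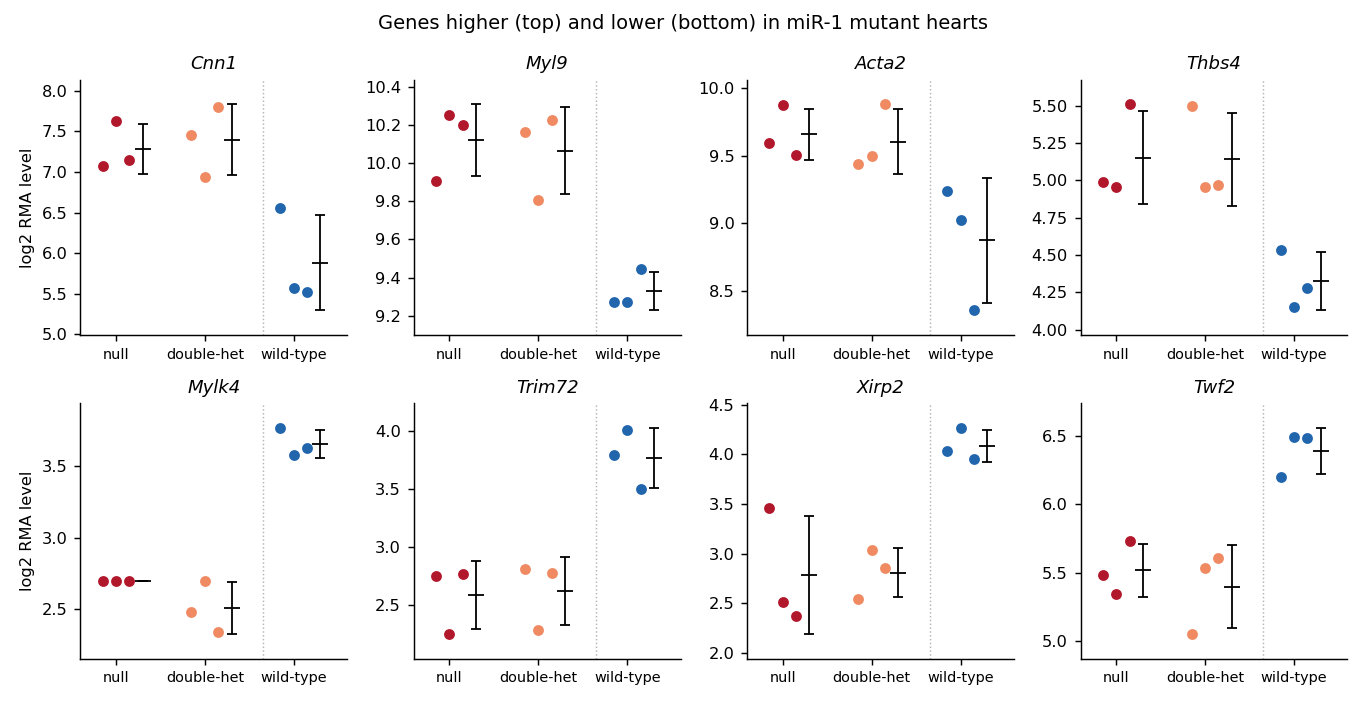
Log2 RMA level (y axis) of *Cnn1*, *Myl9*, *Acta2* and *Thbs4* in the upper row and *Mylk4*, *Trim72*, *Xirp2* and *Twf2* in the lower row, with 1 point per heart for miR-1-1 null, double-heterozygous and wild-type hearts (x axis) and bars for the mean and SD. The 6 mutant hearts lie above all wild-type hearts for the upper genes and below all of them for the lower genes.

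Genes of the striated muscle Z-disc and membrane were among those with the lowest differences. *Xirp2*, an actin-binding protein of the intercalated disc, was at 2.37, 2.70 and 3.46 in mutant hearts, against 4.04, 4.26 and 3.95 in wild-type hearts. The groups were well apart, and its level was 0.409 times that of wild-type (log2 difference -1.29, SE 0.22, limma adjusted p = 0.198). *Trim72*, which takes part in the repair of the muscle cell membrane, was at 2.25, 2.76 and 2.81 in mutant hearts and at 3.80, 4.01 and 3.50 in wild-type hearts (-1.17, SE 0.17, adjusted p = 0.117). *Nrap*, a protein of myofibril assembly at the cell ends, was much brighter, at 6.96, 7.17 and 7.34 in mutant hearts, against 7.78, 7.77 and 7.67 in wild-type hearts (-0.57, SE 0.10, adjusted p = 0.222). All 3 genes showed no overlap.

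*Myom2*, an M-band protein that links thick filaments, was at 6.86 to 7.44 in mutant hearts and 7.67 to 7.89 in wild-type hearts (-0.59, adjusted p = 0.478). *Tcap*, which caps titin at the Z-disc, was at 6.31 to 6.69 in mutant hearts and 6.77 to 7.15 in wild-type hearts (-0.43, adjusted p = 0.478). Neither group pair overlapped. *Myh7*, the myosin heavy chain that predominates in the fetal mouse ventricle, was at 6.26, 6.69 and 7.62 in mutant hearts against 7.83, 8.18 and 7.55 in wild-type hearts, a difference of -0.97 with overlap (exact permutation p = 0.0714). *Ckmt2*, the mitochondrial creatine kinase of sarcomeric muscle, was at 6.18, 6.44 and 7.55 in mutant hearts, against 7.45, 7.57 and 7.63 in wild-type hearts (-0.98, exact permutation p = 0.0476), with a single double-heterozygous heart in the wild-type range.

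Of the 29 Z-disc, M-band and intercalated disc genes, 23 were below 0 (79.3%, against 53.7% over all genes), with a median of -0.11. At the unadjusted limit 9 were lower and 1 higher (31.0% and 3.45%, against 4.77% and 3.10% over all genes). The median was -0.07 in null and -0.18 in double-heterozygous hearts, and -0.07 over all mutants without wild-type heart 1. Of the 24 muscle ubiquitin ligase and sarcolemma genes, 19 were below 0 (79.2%), with a median of -0.29, and 7 were lower and 1 higher (29.2% and 4.17%). That median was -0.07 in null and -0.34 in double-heterozygous hearts, and -0.15 over all mutants without wild-type heart 1. Of all genes, those at log2 levels of 3 to 5 and 5 to 7 leaned the same way, with 40.6% and 31.0% above 0. *Klhl40*, a Kelch protein that stabilises thin filament proteins, had a difference of -0.71, and *Fbxo40*, a muscle F-box ligase subunit, one of -0.38 without overlap (adjusted p = 0.478). The thick and thin filament list was balanced (13 of 24 above 0, median 0.0051), as were the 10 cardiomyocyte markers (6 above 0, median 0.0073) and the 25 core cardiac transcription factors (12 above 0).

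Messengers held to be direct miR-1 targets were not higher as a group. *Twf2*, the actin-capping protein twinfilin 2, was at 5.05, 5.51 and 5.73 in mutant hearts, against 6.20, 6.49 and 6.48 in wild-type hearts. Every mutant heart was lower (log2 difference -0.94, SE 0.14, limma adjusted p = 0.147, exact permutation p = 0.0238). *Ets1*, a transcription factor of endothelium and mesenchyme, was at 5.46 to 5.71 in mutant hearts and 5.90 to 6.11 in wild-type hearts (-0.38, SE 0.08, adjusted p = 0.43), without overlap. In the other direction, *Gja1*, the gap junction protein connexin 43, was at 9.19, 9.40 and 9.54 in mutant hearts and at 8.83, 9.28 and 9.19 in wild-type hearts (0.30, exact permutation p = 0.0476), with overlap. Its difference was 0.16 without wild-type heart 1. *Hand2* and *Irx5*, cardiac transcription factors, differed by 0.13 and -0.05, and by 0.04 without wild-type heart 2 for *Hand2* and 0.04 without wild-type heart 3 for *Irx5*.

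Of 37 measured genes on the list of reported targets, 18 were above 0 and 19 below, with a median of -0.0017. At the unadjusted limit 1 was higher and 3 were lower (2.70% and 8.11%, against 3.10% and 4.77% over all genes). The study's list of genes predicted as targets by several programs was limited to genes not lower in its late embryonic double-knockout hearts. Of its 85 measured genes, 45 were above 0 and 40 below, with a median of 0.016. At the unadjusted limit 6 were higher and 5 lower (7.06% and 5.88%, against 3.10% and 4.77% over all genes). The higher were 3 without null heart 5, and the lower were 3 without wild-type heart 2. Array signal measures RNA, so a change in translation alone is not seen here.

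Of the 33 lists, that of the interferon response and antigen processing had the largest share of members below wild-type at the unadjusted limit. Of 36 measured genes, 33 were below 0, and the median was -0.41 beside -0.013 over all genes. At an unadjusted p under 0.05, 22 of the 36 were lower (61.1%, against 4.77% over all genes) and 0 were higher, and 9 had no overlap between groups. The median was -0.44 in null and -0.42 in double-heterozygous hearts. Averaged over the list, the mean deviation of each heart from the mean of the 9 was -0.03, -0.34 and -0.12 in null hearts and -0.22, -0.15 and -0.12 in double-heterozygous hearts, against 0.08, 0.32 and 0.59 in wild-type hearts. The groups did not overlap, but wild-type heart 1 lay close to the highest mutant and wild-type heart 3 far above it.

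*Irgm2*, an interferon-induced GTPase of vacuole defence, was at 2.73, 3.09 and 3.37 in mutant hearts, against 3.57, 4.16 and 4.55 in wild-type hearts (log2 difference -1.02, SE 0.20, limma adjusted p = 0.36). *Psmb9*, a catalytic subunit of the immunoproteasome, was at 3.33, 4.01 and 4.21 in mutant hearts and at 4.45, 5.05 and 5.32 in wild-type hearts (-1.01, SE 0.22, adjusted p = 0.442). *Gbp7*, a guanylate-binding GTPase, was at 2.11, 2.98 and 3.35 in mutant hearts and at 3.59, 3.97 and 4.59 in wild-type hearts (-1.18, SE 0.29, adjusted p = 0.478). In all 3 genes the mutant range lay below the wild-type range and wild-type heart 3 was the highest.

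*Ccl2*, a chemokine that draws monocytes, was at 3.76, 4.10 and 4.82 in mutant hearts, against 5.03, 5.46 and 5.58 in wild-type hearts (-1.13, SE 0.24, adjusted p = 0.391). These 4 genes met the study's limits, and none passed adjustment. None of the 4 met those limits without wild-type heart 2 or without wild-type heart 3, where the differences ran from -1.02 for *Ccl2* to -0.80 for *Irgm2* in the absence of heart 3. *Irgm2* also missed them without double-heterozygous heart 7, *Psmb9* without null heart 6, and *Gbp7* without any single null heart or without double-heterozygous heart 8 or 9. Chosen after their values were seen, *Iigp1*, another induced GTPase, was at 3.12 to 4.58 in mutant hearts and at 4.42, 5.25 and 5.72 in wild-type hearts (-1.31, exact permutation p = 0.0476), and *B2m*, the light chain of class I antigen-presenting molecules, at 9.51 to 10.06 in mutant hearts and 10.04, 10.74 and 10.29 in wild-type hearts (-0.62, exact permutation p = 0.0476). Both overlapped slightly, through the highest mutant heart, which was null heart 4. Without wild-type heart 3 the list median was -0.28 and 16 of 36 genes were lower at the unadjusted limit, and without wild-type heart 1 the median was -0.55. Genes of these GTPase families share sequence, and cross-hybridisation between them was not tested.

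The promoter windows of *Irgm2* and *Gbp7* (RefSeq, GRCm38.p6, chr11:58214727-58215026 and chr3:142530086-142530385, both plus strand) are shown because both hold the core letters of 2 interferon elements. Capitals mark the core of the interferon-stimulated response element (GAAA repeated after a gap of 2 bases, or its reverse complement), first base at -64 in *Irgm2* and at -53 in *Gbp7* from the start, and the gamma-activated site core TTCNNNGAA, at -75 in *Irgm2* and at -106 and -87 in *Gbp7*.
*Irgm2* promoter: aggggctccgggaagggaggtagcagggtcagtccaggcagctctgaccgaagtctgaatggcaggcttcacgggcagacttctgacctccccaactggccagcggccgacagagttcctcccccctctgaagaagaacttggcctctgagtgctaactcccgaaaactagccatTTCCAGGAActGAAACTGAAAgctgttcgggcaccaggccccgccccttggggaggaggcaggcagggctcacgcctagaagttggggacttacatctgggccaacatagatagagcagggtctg
*Gbp7* promoter: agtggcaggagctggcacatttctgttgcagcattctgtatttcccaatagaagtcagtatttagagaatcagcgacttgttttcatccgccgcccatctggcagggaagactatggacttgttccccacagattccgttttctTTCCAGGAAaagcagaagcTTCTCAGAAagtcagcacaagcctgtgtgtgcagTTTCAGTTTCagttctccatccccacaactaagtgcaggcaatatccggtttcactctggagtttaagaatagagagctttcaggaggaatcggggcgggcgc
Both strands were searched, and the 2 motifs did not overlap in these windows. The first core was present in 14 of the 29 list genes with a window (48.3%) and in 569 of 16990 genes in all (3.35%). The second was present in 9 of 29 (31.0%) and in 1367 of 16990 (8.05%). The list was drawn up from genes known to respond to interferon, so these shares describe it and test nothing.

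Leukocyte markers were also mostly below 0. Of 26 macrophage and leukocyte genes, 22 were below 0, with a median of -0.15 (-0.064 without wild-type heart 2 and -0.24 without wild-type heart 1). At the unadjusted limit 6 were lower and 1 higher (23.1% and 3.85%, against 4.77% and 3.10% over all genes). The mean deviation of the list was 0.18, 0.01 and -0.10 in null hearts and -0.11, -0.20 and -0.13 in double-heterozygous hearts. It was -0.00089, 0.25 and 0.10 in wild-type hearts, so the groups overlapped. Summed linear signal of the list was 367 to 744 in mutant hearts and 497 to 598 in wild-type hearts, and *Cd79a*, *Cd14*, *Cd3e* and *Csf3r* were near background. *Mrc1*, the mannose receptor of resident macrophages, was at 3.72 to 4.21 in mutant hearts and 4.31 to 4.50 in wild-type hearts (-0.42, adjusted p = 0.478), and *Csf2rb*, the shared beta chain of cytokine receptors, had a difference of -0.97 (adjusted p = 0.453), each without overlap. The part of leukocyte number in the interferon values was not tested.

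**Figure D4:**
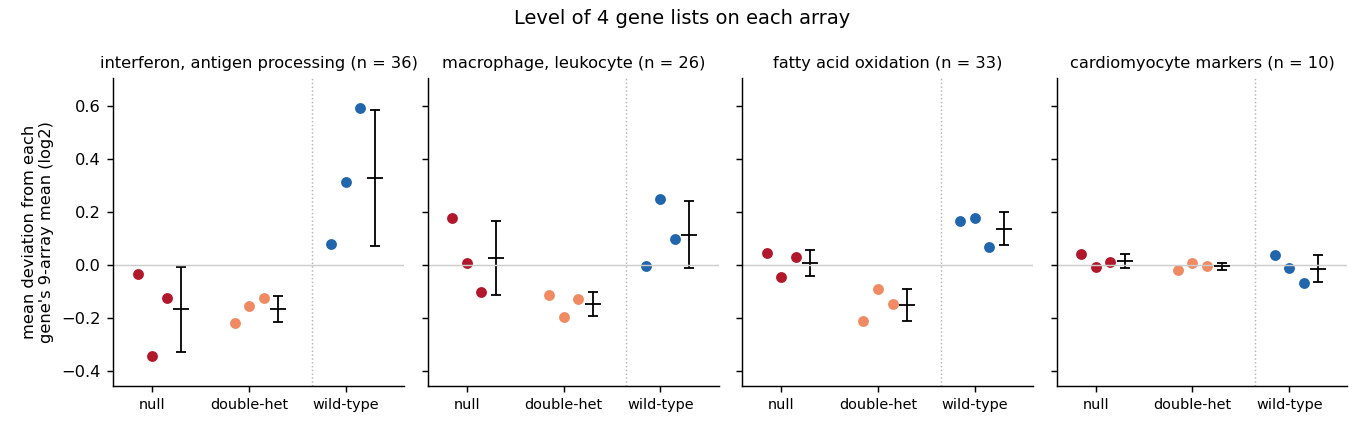
Mean deviation of each heart from the 9-heart mean (y axis, log2) over the interferon and antigen processing (36 genes), macrophage and leukocyte (26), fatty acid (33) and cardiomyocyte (10) lists, with 1 point per heart for miR-1-1 null, double-heterozygous and wild-type hearts (x axis). The interferon means run from -0.34 to -0.03 in mutant hearts and from 0.08 to 0.59 in wild-type hearts, while cardiomyocyte means of both groups lie near 0.

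Fatty acid genes were lower by small amounts in nearly every member. Of 33 measured genes of fatty acid uptake and oxidation, 32 were below 0 (*Eci1*, an enoyl-CoA isomerase, was the exception), with a median of -0.16. At the unadjusted limit 9 were lower (27.3%, against 4.77% over all genes), but 4 without wild-type heart 1 and 4 without wild-type heart 2. The median was -0.10 in null and -0.22 in double-heterozygous hearts, and that difference was not tested. *Pdk4*, the kinase that turns pyruvate away from oxidation, was at 7.90, 8.43 and 8.72 in mutant hearts and at 8.92, 8.76 and 8.79 in wild-type hearts (-0.49, adjusted p = 0.569). Its mutant range lay just under the wild-type range, and the double-heterozygous minus null difference was -0.46 (adjusted p = 0.599). *Ppargc1b*, a co-activator of mitochondrial genes, was at 5.58 to 5.88 in mutant hearts and 6.03 to 6.42 in wild-type hearts (-0.45, adjusted p = 0.478). *Ppargc1a*, its paralogue, had a difference of -0.53 that was -0.23 without wild-type heart 1, the heart with the most *Ucp1*.

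*Hadhb*, which encodes the thiolase part of the trifunctional enzyme, differed by -0.62 with overlap (exact permutation p = 0.0714). Genes at log2 levels of 5 to 7, the range of many of these enzymes, had a median difference of -0.057 over 3646 genes, with 31.0% above 0, a lean in the same direction as that of the list. The respiratory chain list leaned less, with 39 of 51 genes below 0 and a median of -0.064. In it *Cox8a*, a small cytochrome oxidase subunit, was at 9.57 to 9.79 in mutant hearts against 9.12 to 9.42 in wild-type hearts (0.35, adjusted p = 0.478), and *Cox6a1*, another such subunit, had a difference of 0.29 (adjusted p = 0.497).

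**Figure D5:**
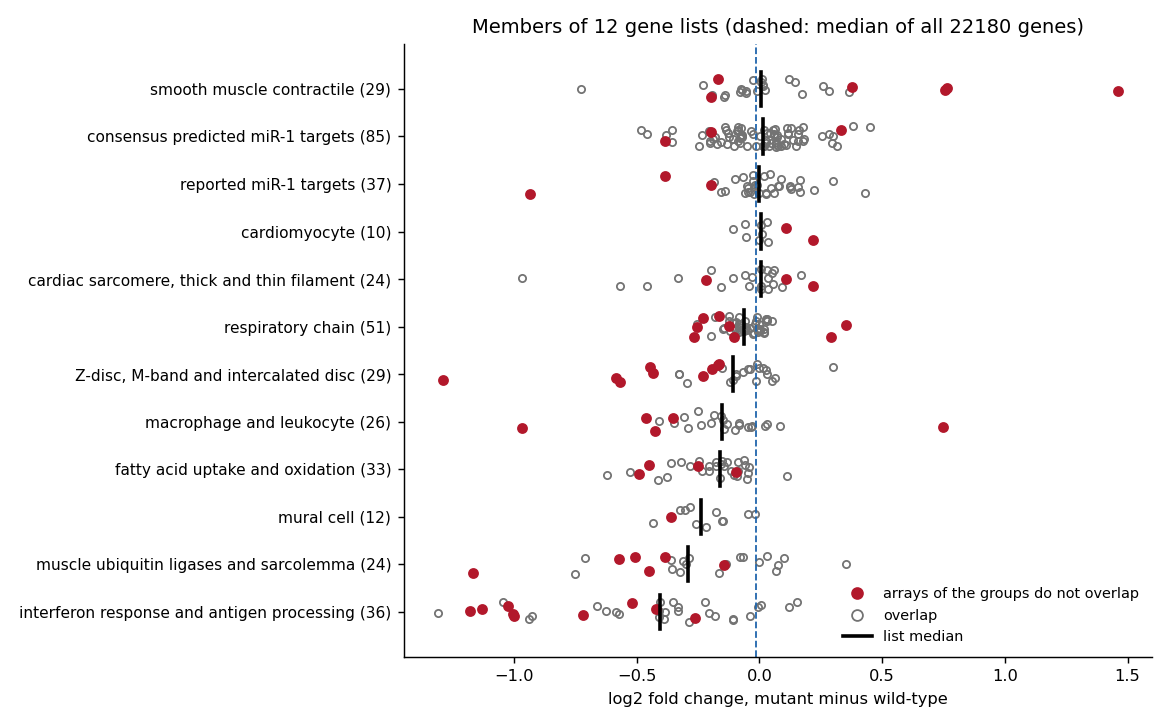
Pooled mutant minus wild-type log2 difference (x axis) of each measured gene in 12 lists (rows), with filled points where the groups do not overlap, a bar at the list median and a dashed line at the median of all genes. The interferon list has a median of -0.41 and the mural cell list one of -0.24, while the smooth muscle list is centred near 0 with a few genes far to the right.

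Several of the remaining genes past the study's limits belong to no single pathway. *Rpph1*, the RNA of ribonuclease P, which trims transfer RNA precursors, was at 10.15, 10.75 and 11.01 in mutant hearts, against 9.24, 9.38 and 8.61 in wild-type hearts. It was 2.97-fold higher with no overlap (log2 difference 1.57, SE 0.23, limma adjusted p = 0.147). *Thbs4*, thrombospondin 4, a matrix protein of stressed heart and tendon, was at 4.96, 4.98 and 5.51 in mutant hearts and at 4.53, 4.15 and 4.28 in wild-type hearts (0.82, SE 0.16, adjusted p = 0.36), and it missed the study's limits without wild-type heart 2 (0.74) or 3 (0.80). Around it, 20 of 29 extracellular matrix genes were below 0 with a median of -0.11, which was -0.05 without double-heterozygous heart 9. *Mid1*, an X-linked ubiquitin ligase bound to microtubules, was at 4.50, 4.69 and 5.05 in mutant hearts, against 6.25, 5.39 and 6.13 in wild-type hearts (-1.20, SE 0.19, adjusted p = 0.177), without overlap.

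*Mpp7*, a scaffold protein of cell polarity, was at 3.93, 4.09 and 4.17 in mutant hearts and at 3.49, 3.51 and 3.36 in wild-type hearts (0.62, SE 0.08, adjusted p = 0.0912). *Mpp7* is 1 of the 50 measured neighbours of the *miR-1-2* locus on chromosome 18, of which 3 were higher and 2 lower at the unadjusted limit. The *Mpp7* difference was 0.66 in null hearts, whose *miR-1-2* alleles are intact, and 0.59 in double-heterozygous hearts. It was 0.33 when the probe sets of the gene were averaged. An effect of the targeted locus on *Mpp7* was not tested. *Pcdhb6*, a clustered protocadherin of cell adhesion on the same chromosome, was at 3.26, 3.39 and 3.55 in mutant hearts and at 2.78, 2.77 and 2.59 in wild-type hearts (0.67, SE 0.09, adjusted p = 0.0912). Neither gene overlapped between groups. *Lyz1*, a lysozyme, was at 2.17, 2.34 and 2.45 in mutant hearts and at 1.81, 1.22 and 1.70 in wild-type hearts, a level near background, so its fold is not well measured.

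The cell cycle list, processes that miR-1 is known to restrain, held no gene at the unadjusted limit among 35, with 18 above 0 and 17 below. Its median was 0.009, made up of -0.10 in null and 0.11 in double-heterozygous hearts, a difference that was not tested. The pooled median was -0.19 without wild-type heart 2 and 0.11 without wild-type heart 3, so its direction turned with a single heart. Its mean deviation was lowest in null heart 4 (-0.37) and wild-type heart 2 (-0.38). Over all genes 53.7% were below 0, with 3.10% higher and 4.77% lower at that limit. Genes at log2 levels of 3 to 5 and 5 to 7 leaned further below 0, with 40.6% and 31.0% above it. Of 21 calcium handling genes, 16 were below 0 and 1 was lower at the unadjusted limit, a share of 4.76% that was no larger than that of all genes. Of 25 channel genes, 17 were below 0, 1 was higher and 3 were lower. Endothelial genes were below 0 in 15 of 20 (3 lower, but 1 without double-heterozygous heart 9 or without wild-type heart 2) and epicardial genes in 9 of 11 (2 lower).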

How the data were processed

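RNA of 9 neonatal heart samples was profiled on Affymetrix Mouse Gene ST 2.0 arrays. The log2 values deposited by the authors were made by RMA in Affymetrix Power Tools (version 1.12.0 per the labels), so the depth is set by the number of arrays. Of 41345 probe sets, 23521 had a single gene symbol, 1820 several and 16004 none, and genes were named through the platform annotation (23328 matched by gene ID). For each of 22180 genes the probe set with the highest mean was kept, with no further normalisation or filter. Mutant (6) and wild-type (3) arrays were compared in limma 3.58.1 (R 4.3.3) with an empirical Bayes variance and Benjamini-Hochberg adjustment over all genes, after the script was tested on simulated data. A second limma fit held the genotypes apart for their difference. Single values were tested by a two-sided exact permutation over 84 assignments. No scan date or other batch was given in the sources used here. Quantile normalisation brings all arrays to the same distribution, so a shift common to all genes cannot be seen.

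The genes named were the miR-1 and miR-133a loci, the 12 higher and 12 lower genes with the smallest p among those 1.5-fold apart without overlap, at most 5 genes a list, taken by p, up to 4 genes past the study's limits that differed most between genotypes, and genes the study follows in heart. Predicted models and receptor families were counted only, apart from *Gm10731* and *Olfr801*. Other genes outside the rule were named to describe a list, a heart or a set of promoters, and not all are marked as such. The members and the 33 gene lists (852 entries, 74 unmatched) were chosen with earlier results of these data known. The alternatives were a mean per genotype, each genotype alone, trended robust variances, the methods' t-test, brighter genes only, cyclic loess or repeated quantile normalisation, the mean over probe sets, array weights, *Eif2s3y* level as a covariate, a symmetric fold limit and each heart left out in turn. Leaving out the arrays high in *Xist* was chosen after seeing the data. Promoter windows and the miRNA sequence came from RefSeq (GRCm38.p6).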

Additional observations from a re-analysis of the deposited data

Results flagged for a closer look

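Of 120 genes examined in the 6 mutant hearts, 8 had a single heart that lay apart from the other 5 by more than Dixon's 95% limit, and chance flags about 1 in 20 such groups. Null heart 5 accounted for 4 of them. In it *Cacna1h*, a T-type calcium channel subunit, was at 2.95, against 3.50 to 3.80 in the other mutant hearts. *Hk2*, the insulin-responsive hexokinase, was at 4.02, against 4.32 to 4.49, and *Nkx2-5*, a cardiac homeobox factor, was at 5.10, against 5.34 to 5.47. *Fos*, an immediate early transcription factor, was at 2.54 in that heart, against 1.76 to 2.01.

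The other 4 lay in different hearts. *Lgals3bp*, a secreted glycoprotein of the interferon response, was at 6.68 in null heart 4, against 5.71 to 6.01. *Psmb9* was at 3.33 in null heart 6, against 3.91 to 4.21. *Ckmt2* was at 7.55 in double-heterozygous heart 8, against 6.18 to 6.63, and *Ckb*, the brain-type creatine kinase, was at 7.71 in double-heterozygous heart 9, against 7.19 to 7.38.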

How the results depend on the processing

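Across the alternatives run, 2379 values of named genes kept their direction and their side of the study's limits, 23 newly met them, 81 no longer did, and 22, of genes that did not meet them, changed sign. With null hearts alone *Egr1* (-0.17) was 0.055, *Gata4* (-0.066) 0.059 and *Irx5* (-0.045) 0.064. With double-heterozygous hearts alone *Fos* (0.070) was -0.043, *Gata6* (0.017) -0.092, *Mir133a-2* 0.022 and *Nkx2-5* (-0.00032) 0.052. Without the arrays high in *Xist*, *Egr1* was 0.076, *Mib1* (-0.088) 0.050 and *Nkx2-5* 0.11, and the last was 0.042 with *Eif2s3y* as a term, 0.051 after cyclic loess and 0.068 after repeated quantile normalisation. With single hearts left out, *Egr1* ran from -0.39 to 0.15 (without wild-type heart 2 and 1), *Fos* from -0.044 to 0.16 (null 5, wild-type 1), *Gata6* from -0.033 to 0.070 (wild-type 3, double-heterozygous 8), *Irx5* from -0.088 to 0.038 (null 6, wild-type 3), *Mib1* from -0.15 to 0.025 (wild-type 2, wild-type 1) and *Nkx2-5* from -0.13 to 0.14 (wild-type 3, wild-type 1). The 2 genes lower at an adjusted p under 0.05 were 4 with *Eif2s3y* level as a term, 1 among genes above the median level, and 0 with the methods' t-test, with null hearts alone, with double-heterozygous hearts alone and without the arrays high in *Xist* (chosen after seeing the data). Leaving out single hearts gave 0 to 3. The count of genes higher at that limit was 0, and 1 with double-heterozygous hearts alone. By the study's limits, the 18 higher genes became 37 on the mean of the genotypes, 95 with double-heterozygous hearts alone and 7 with the t-test, and 13 to 48 when single hearts were left out, the highest without null heart 6. The 11 lower genes became 5 with null hearts alone, 5 with the t-test, 22 without the arrays high in *Xist* and 30 with a symmetric 1.5-fold limit, and 5 (without wild-type heart 3) to 24 (without wild-type heart 1) when single hearts were left out, with 7 without null heart 6. The cause was not tested. The neuronal and glial list median, 0.040, reversed to -0.0055 without wild-type heart 1, the lowest of a range that reached 0.066. The smooth muscle list median, near 0, ran from -0.084 (without wild-type heart 2) to 0.059 (without wild-type heart 1). No paired analysis was possible because the replicate numbers of the labels are not shared between the groups. With 3 wild-type arrays, a single heart can decide a call.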

Other observations

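The direction of the difference moved with brightness, but not steadily. Genes at log2 levels of 2 or less, 7309 in all, had a median mutant minus wild-type difference of 0.017 and 55.3% of them were above 0. The 3646 genes at levels of 5 to 7 had a median of -0.057 and 31.0% above 0. At levels of 7 to 9 the median was -0.030 with 37.8% above 0, and above 9 it was -0.013 with 42.2% above 0. Of the 50 measured neighbours of the *miR-1-1* locus on chromosome 2, 1 was higher and 4 were lower at an unadjusted p under 0.05, with a median of -0.013. *Sox10*, a neural crest and glial transcription factor, was at 2.20 to 2.40 in mutant hearts and 1.70 to 1.88 in wild-type hearts (0.48, limma adjusted p = 0.21), without overlap. Its wild-type values lay close to the array background of 1.74 in wild-type hearts, so its fold is not well measured. *Adgrd1*, an adhesion receptor, was at 1.93, 2.34 and 2.50 in mutant hearts and at 3.20, 2.99 and 3.13 in wild-type hearts (-0.84, adjusted p = 0.177). On the first principal component of all genes, which held 22.3% of the variance, double-heterozygous hearts scored 0.35 to 0.46 and null hearts -0.29 to 0.18, against -0.43 to -0.27 in wild-type hearts.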
